A study of Mus musculus with 24 samples.

Results

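Olig1, Olig2, Olig3, Sox10, Pdgfra, Cspg4 and Omg are genes named for, or widely used as markers of, the oligodendrocyte lineage, and they were taken by gene symbol from the deposited expression table. The 7 genes were all found among the 23119 genes of the table, and all 7 were among the 12105 genes tested. Poly(A) RNA was sequenced from JB4/EI7HZ2 cells, female mouse embryonic stem cells (mESCs) of JF1 and B6 parents, and from SmcHD1-KO cells derived from them by CRISPR-Cas9. SmcHD1 is a chromosomal protein needed to keep many genes of the inactive X chromosome silent. Each genotype was sampled as mESCs in serum medium with 2i/LIF (inhibitors of MEK and GSK3 with leukemia inhibitory factor), as cells differentiated to neurectoderm for 7 or 9 days, and as neural stem cells (NSCs) held in FGF2 and EGF, with 3 replicates in each of the 8 groups and 24 libraries in all. Both genotypes carry drug resistance genes on their X chromosomes, and the media of mESCs and NSCs held G418 and zeocin to keep 2 X chromosomes. NSCs were made by a different protocol from the day 7 and day 9 cells, so stage and protocol cannot be told apart. All KO libraries come from 1 mutant line, so genotype and line cannot be told apart either. Nothing was sorted, and in these bulk samples fewer cells of a type and less RNA per cell cannot be told apart.

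In the embryo most oligodendrocytes arise from ventral progenitors of the neural tube that express Olig2, and the first step on the path is the oligodendrocyte precursor cell. Olig2 and Olig1 are basic helix-loop-helix factors needed for this lineage, Olig2 also for motor neurons, and Sox10 is the HMG-box factor that later drives the myelin genes. Pdgfra is the receptor for PDGF-A, the mitogen of precursor cells, and Cspg4 (NG2) is a proteoglycan on their surface. Omg encodes a myelin glycoprotein that binds the Nogo receptor. Olig3 is a relative of Olig1 and Olig2 with a different place in the embryo, the dorsal neural tube, so it is not a marker of oligodendrocytes. Other cells also make some of these products: Sox10 and Pdgfra are expressed in neural crest, Pdgfra in mesenchyme and in primitive endoderm, and Cspg4 in pericytes.

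In the mm9 build Olig2 (chr16:91225795-91228922) and Olig1 (chr16:91270014-91272184) lie on the same strand, 41091 bp apart with 0 annotated genes between them. Olig3 (chr10:19076366-19078412), Sox10 (chr15:78985343-78994920, minus strand), Pdgfra (chr5:75548316-75594229) and Cspg4 (chr9:56712911-56747677) are each alone at their locus. Omg (chr11:79314484-79317586, minus strand) lies inside a gene on the other strand, Nf1 (chr11:79153195-79395114), and the deposited table estimates them in 1 bundle. The members whose levels differed in opposite directions between KO and WT cells at day 9 are Olig2 and Olig3, so their promoters are shown. RefSeq held promoters of 4 of the 7 members, on GRCm38.p6. The 120 bases before the annotated start are given 5′ to 3′ on the gene's strand, for Olig2 at chr16:91225430-91225549 and for Olig3 at chr10:19356419-19356538, and capitals mark the letters TATAAA.
Olig2: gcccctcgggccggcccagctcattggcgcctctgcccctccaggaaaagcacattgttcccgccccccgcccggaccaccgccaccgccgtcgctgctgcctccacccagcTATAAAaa
Olig3: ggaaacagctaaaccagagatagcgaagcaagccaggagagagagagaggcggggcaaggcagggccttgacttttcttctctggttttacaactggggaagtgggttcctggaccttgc
TATAAA stands in the last 8 bases before the Olig2 start and does not occur on either strand of the Olig3 window. Of 32851 RefSeq promoters, 4.19% hold these letters on the gene's strand in the same window, and 6.34% on either strand.

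Levels are FPKM (fragments scaled to transcript length and to the mapped fragments of the library), which are per length and so can be compared between genes. Up to 60 reads, the values of each member were whole multiples of a step, which is taken as 1 read. Reads per gene below come from that step, and those above 60 reads are estimates by division. Depth was even, the relative number of reads running from 0.811 to 1.15 over the libraries. Smchd1 itself ran from 1.82 to 4.40 FPKM in the 12 KO libraries and from 13.0 to 26.4 in the 12 WT libraries. The 7 pluripotency markers all fell from WT mESCs to WT NSCs, and 5 of 6 neural stem cell markers rose, led by Fabp7 (log2 fold change 11.58) and Egfr (5.39), although Egfr was tested only because of the NSC libraries, so that its rise was built in. WT NSC replicate 1 stood apart from the other WT NSC libraries in its markers: the 8 astrocyte markers summed to 179 FPKM against 395 and 445 in replicates 2 and 3, and the 8 pericyte markers to 29.5 against 6.84 and 8.63. WT day 7 replicate 1 stood apart in the 10 ventral neural progenitor markers, with 57.4 against 209.8 and 227 FPKM. The main counts and calls that rest on these libraries are therefore also given without them.

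Olig1 was by far the most strongly expressed member in NSCs. It stood at 2.83, 4.79 and 2.16 FPKM in replicates 1 to 3 of WT mESCs and at 2.09, 4.28 and 2.99 in KO mESCs. In NSCs it stood at 1107, 1155 and 1100.5 FPKM in WT and at 1368, 1483 and 1255 in KO cells, with 11474 to 15605 reads in a library. All 6 NSC libraries thus lay far above all others, the NSC mean being 344 times the mESC mean in WT and 439 times in KO cells. On the log2(FPKM + 1) scale WT NSCs were 8.09 (SE 0.25) above WT mESCs, and KO NSCs 8.41 above KO mESCs (limma adjusted p 2.92e-17 and 1.34e-17).

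Olig1 was not silent in mESCs, and it was lowest at day 9. WT day 7 libraries held 4.01, 2.26 and 1.09 FPKM and KO day 7 libraries 0.926, 1.69 and 1.05. At day 9 WT libraries held 0.435, 0.802 and 0.635 FPKM and KO libraries 0.547, 0.535 and 1.09, which is 5 to 11 reads each. The WT level fell from day 7 to day 9 (log2 fold change -1.004, SE 0.25, adjusted p 0.00392), and the KO level fell from mESCs to day 7 (-0.87, adjusted p 0.00500). Whether the time of the fall differs between genotypes is not shown. For Olig1 the KO effect at day 7 was not called against that in mESCs, nor that at day 9 against day 7. In both genotypes the order of group means was NSC, mESC, day 7 and day 9, but WT day 7 and WT mESC libraries overlapped, as did KO day 7 and KO day 9 libraries.

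Olig2 rose with Olig1 in NSCs, but in WT cells it had no called fall before that. WT mESCs held 2.40, 4.67 and 3.04 FPKM, WT day 7 cells 2.197, 2.72 and 6.70, and WT day 9 cells 3.22, 6.36 and 8.55. These 3 WT groups overlapped, and neither WT day 7 against mESC nor WT day 9 against day 7 was called. KO mESCs held 1.45, 3.13 and 2.32 FPKM and KO day 7 cells 0.519, 0.651 and 1.02. In KO cells Olig2 thus fell from mESCs to day 7 (log2 fold change -0.91, adjusted p 0.0158, limma), as Olig1 did. That call was lost in 2 of the 6 runs that left out a library. WT NSCs held 364, 303 and 346 FPKM and KO NSCs 351, 369 and 362, with 3749 to 4520.0 reads. The log2 fold change from mESCs to NSCs was 6.30 (SE 0.31, adjusted p 1.29e-13) in WT and 6.81 (3.31e-14) in KO cells.

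The pair also changed its balance. The ratio of Olig1 to Olig2 FPKM was 0.709 to 1.18 in WT mESCs, 0.162 to 1.82 at WT day 7, 0.0743 to 0.135 in WT day 9 cells and 3.05 to 3.81 in WT NSCs. The WT day 7 libraries thus went both ways. Olig2 was thus the more abundant of the pair in every WT day 9 library and Olig1 in every NSC library. In KO cells the ratio was 1.29 to 1.44 in mESCs, 1.03 to 2.59 at day 7, 0.184 to 0.657 at day 9 and 3.46 to 4.02 in NSCs. The day 9 ratio was thus again the lowest. The ratios of WT and KO libraries did not overlap at day 9, where Olig1 rests on 5 to 11 reads, nor in mESCs.

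**Figure D1:**
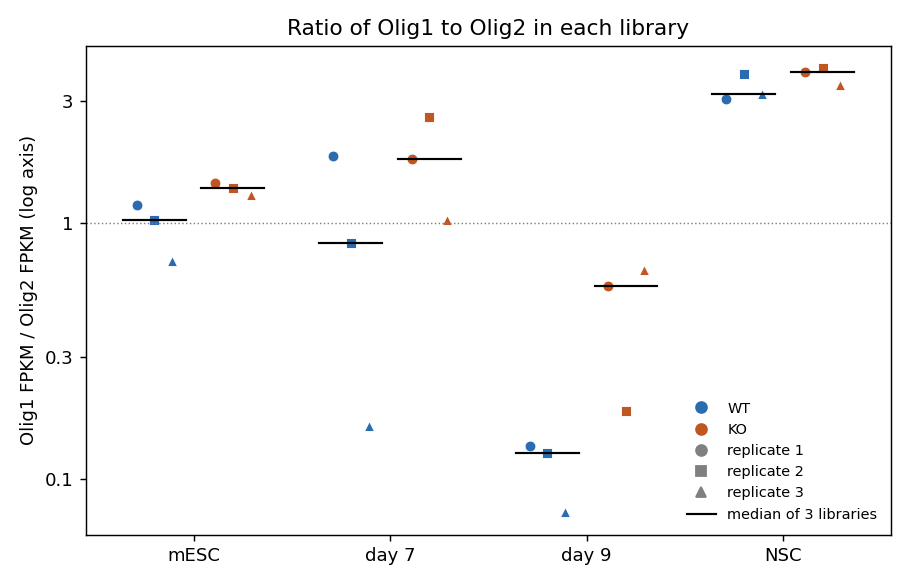
Ratio of Olig1 to Olig2 FPKM (log axis) in each of the 24 libraries by stage, with WT in blue, KO in orange, symbols for replicates and a bar at the median of 3 libraries. The NSC libraries lie between 3.05 and 4.02 and the WT day 9 libraries between 0.0743 and 0.135.

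Olig3 had the reverse pattern and was listed at 0 in all 6 NSC libraries. It stood at 1.75, 2.64 and 1.37 FPKM in WT mESCs and at 3.01, 2.76 and 1.64 in KO mESCs. The highest values were at day 7, with 19.9, 12.1 and 6.42 FPKM in WT and 4.09, 11.4 and 7.12 in KO cells. Every WT day 7 library lay above every WT mESC library (log2 fold change 2.14, SE 0.34, adjusted p 1.67e-05, and 1.78 without WT day 7 replicate 1), and the same held for KO cells (1.23, adjusted p 0.00398). By day 9 WT cells were back at 2.02, 2.07 and 1.53 FPKM, a fall by 2.14 on the log2 scale (adjusted p 5.65e-05), while KO cells still held 11.0, 3.39 and 5.84 FPKM. The fall to 0 in NSCs was called against mESCs and against day 9 in both genotypes, and no fold is given against a group at 0.

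Sox10 was the member that separated the NSC libraries most. In mESCs it was close to 0, with 0 to 5 reads in a library. It held 0.698, 0.807 and 0.596 FPKM in WT day 7 cells and 1.64, 0.838 and 0.995 in WT day 9 cells, and 0.330, 0.745 and 0.496 and then 1.14, 0.699 and 1.39 in the KO cells of these days. In WT NSCs replicates 1 to 3 held 0.757, 9.17 and 6.75 FPKM (10, 129 and 96 reads), so replicate 1 was at the level of day 9 cells and the others well above. KO NSCs held 0.666, 0.298 and 0.856 FPKM (8, 4 and 12 reads), all within or below the day 9 range. WT NSCs were called above WT mESCs (log2 fold change 2.18, SE 0.39, adjusted p 3.01e-05) and above WT day 9 cells (1.28, 0.00769). The call against day 9 was lost without WT NSC replicate 2 (adjusted p 0.0782) or 3 (0.0549) and when only these groups were fitted (0.131), and the difference was 2.06 without WT NSC replicate 1. KO NSCs were called against neither KO mESCs (0.63, adjusted p 0.147) nor KO day 9 cells.

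Pdgfra, the PDGF-A receptor, rose in the NSCs of both genotypes, and at day 7 in WT cells with a call that single libraries decided. WT mESCs held 0.392, 0.129 and 0.367 FPKM and KO mESCs 0.204, 0.194 and 0.222. WT cells held 0.936, 1.66 and 2.46 FPKM at day 7 and 0.834, 2.92 and 1.77 at day 9, and KO cells 0.965, 0.588 and 1.11 and then 0.763, 0.553 and 0.763. The step from mESC to day 7 was called in WT (log2 fold change 1.02, SE 0.36, adjusted p 0.0211) and not in KO cells (0.63, adjusted p 0.138), and whether the step differs between genotypes is not shown, since the difference of -0.38 was itself not called (adjusted p 0.980). The WT call was lost without WT mESC replicate 2 (adjusted p 0.0676) or WT day 7 replicate 2 (0.0503) or 3 (0.0965). The WT log2 fold change ran from 0.81 to 2.16 over the 12 alternatives, and to 1.23 at most over the leave-outs. WT NSCs held 5.85, 27.4 and 19.8 FPKM and KO NSCs 8.18, 5.88 and 12.2, above all other libraries. The rise from mESCs to NSCs was 3.63 in WT (adjusted p 1.01e-08, and 4.24 without WT NSC replicate 1) and 2.96 in KO cells (2.07e-07).

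Cspg4 and Omg were close to absent before the NSC stage. Cspg4 had 1 to 6 reads in each of the 18 libraries outside NSCs, and then 5.23, 5.89 and 7.99 FPKM in WT NSCs and 3.60, 1.91 and 5.09 in KO NSCs (80 to 355 reads). Its log2 fold change from mESCs to NSCs was 2.71 (SE 0.19, adjusted p 1.91e-11) in WT and 2.04 (2.05e-09) in KO cells. With values this low the pseudocount sets the size, and with 0.1 in place of 1 it was 4.93 and 4.45. Omg had 0 or 1 read in each of the 18 libraries, and then 2.72, 13.5 and 7.68 FPKM in WT NSCs and 6.41, 4.44 and 9.47 in KO NSCs (29 to 153 reads), with overlap between the genotypes. The rise from mESCs was called in both genotypes (adjusted p 1.09e-08 in WT and 1.03e-08 in KO cells), and no fold is given for Omg, which was at 0 or 1 read in every mESC library. Whether reads were counted by strand is not given in the sources used here, and Nf1 covers Omg on the other strand. Nf1 stood at 2.40 ± 0.319 FPKM (SD, n = 3) in WT mESCs and at 9.12 ± 0.235 in WT day 9 cells, where Omg had 0 or 1 read, and at 12.8 ± 2.28 in WT NSCs.

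**Figure D2:**
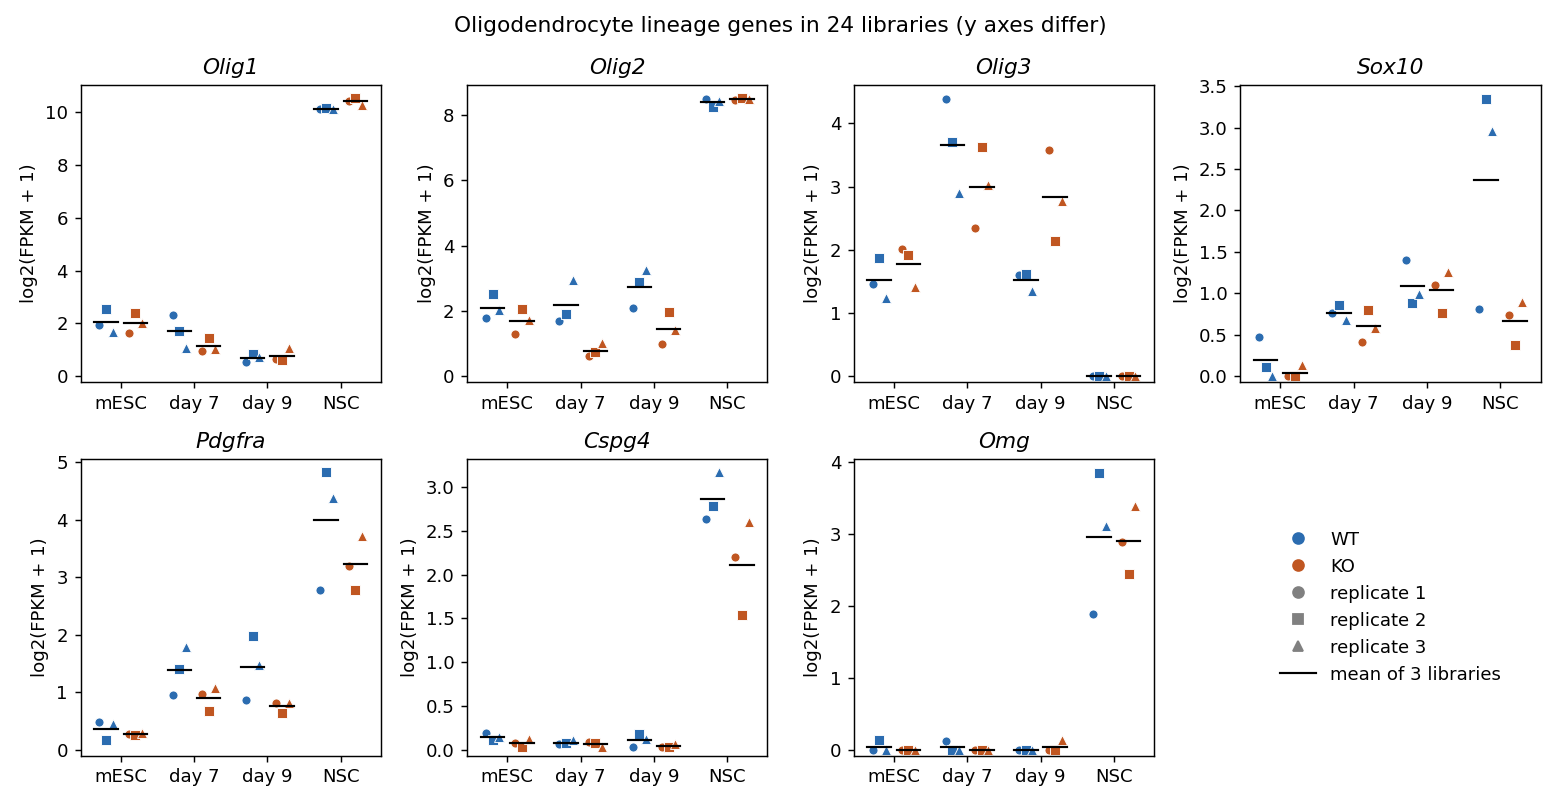
Level of each member in the 24 libraries, as log2(FPKM + 1), by stage with WT in blue and KO in orange, symbols for replicates and a bar at the mean of 3 libraries (y axes differ). Olig1, Olig2, Pdgfra, Cspg4 and Omg are highest in the NSC libraries of both genotypes, Sox10 in 2 WT NSC libraries, and Olig3 is at 0 in all 6 NSC libraries.

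Counted over the members, 7 of 7 were called between WT NSCs and WT mESCs, 6 higher and Olig3 lower, where 75.2% of all tested genes were called. Between KO NSCs and KO mESCs 6 of 7 were called (76.0% of tested genes), Sox10 being the exception. NSCs against day 9 cells gave 7 of 7 in WT (55.1%) and 6 of 7 in KO cells (59.6%), with the same exception. Within a genotype these comparisons share the NSC libraries and are no independent counts. Sox10, Pdgfra, Cspg4 and Omg had a mean under 1 FPKM outside NSCs and were tested only because of the NSC libraries, so a difference was built into their being tested. Before NSCs the counts were 2 of 7 from WT mESC to day 7, Olig3 and Pdgfra (59.2% of tested genes), 2 of 7 from WT day 7 to day 9, Olig1 and Olig3 (33.8%), 3 of 7 from KO mESC to day 7, Olig3 up and Olig1 and Olig2 down (61.3%), and 0 of 7 from KO day 7 to day 9 (30.6%), where Olig2 alone had an unadjusted p under 0.05 (limma). Cspg4 and Omg had so few reads before NSCs that they could hardly be called there, so these counts are not read against the shares of all tested genes.

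In KO against WT mESCs none of the 7 members was called by limma, and none had an unadjusted p under 0.05 (0.529% of tested genes called). The 3 KO and 3 WT libraries overlapped for every member, while those of 11.0% of tested genes did not.

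At day 7 the KO cells had less Olig2. The KO libraries held 0.519, 0.651 and 1.02 FPKM (7, 7 and 11 reads) against 2.197, 2.72 and 6.70 in WT libraries (28, 30 and 70 reads). All KO libraries lay below all WT libraries, as they also lay below the mESC libraries of their own genotype. The KO mean was 0.189 of the WT mean, and the log2 fold change was -1.39 (SE 0.31, adjusted p 0.0106, limma). This was the only call among the members (1 of 7, 3.68% of tested genes called, with 23.97% not overlapping). It was -1.64 without WT day 7 replicate 1, the library with few ventral markers, and it was no longer called without WT replicate 3 (-1.01, adjusted p 0.0886) or KO replicate 1 (-1.30, 0.0567). Olig1, its neighbour, had a log2 fold change of -0.56 and was not called (adjusted p 0.307), with WT and KO libraries overlapping.

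At day 9 Olig2 was again lower in KO cells and Olig3 was higher. Olig2 stood at 0.964, 2.91 and 1.65 FPKM in KO and 3.22, 6.36 and 8.55 in WT libraries, without overlap, a log2 fold change of -1.29 (SE 0.31, adjusted p 0.0127, limma). Olig3 stood at 11.0, 3.39 and 5.84 FPKM in KO and 2.02, 2.07 and 1.53 in WT libraries, also without overlap, a log2 fold change of 1.31 (SE 0.34, adjusted p 0.0210). These were 2 of 7 members, where 6.68% of tested genes were called and the libraries of 32.3% did not overlap. Pdgfra was lower in KO cells without overlap too (KO mean 0.376 of the WT mean) and was not called (-0.68, adjusted p 0.360). The exact permutation p over 3 against 3 libraries was 0.1 for Olig2 at day 7 and for Olig2, Olig3 and Pdgfra at day 9, the smallest this design allows.

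Both day 9 calls depended on single libraries. Olig2 was not called when only the day 9 groups were fitted (adjusted p 0.0592), nor without WT replicate 2 (adjusted p 0.0665), without WT replicate 3 (0.0962) or without KO replicate 1 (0.100), with log2 fold changes from -1.62 to -1.03 over the leave-outs. Olig3 was not called without WT replicate 2, WT replicate 3, KO replicate 1 (0.94, adjusted p 0.181) or KO replicate 3, with 0.94 to 1.66 over the leave-outs. Each kept its direction in every leave-out.

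**Figure D3:**
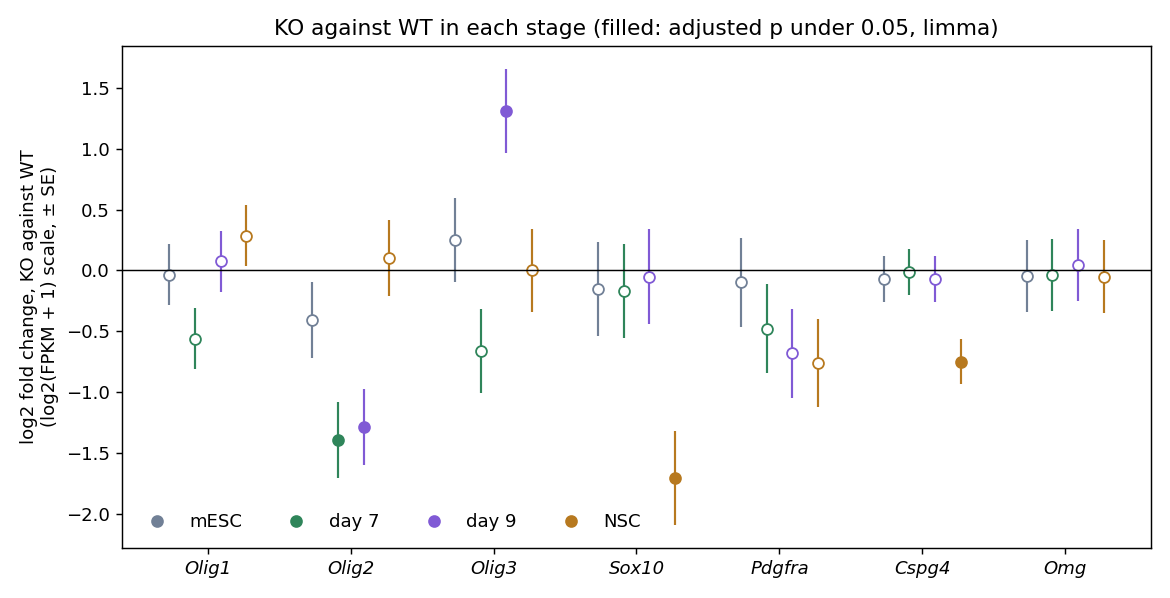
Log2 fold change of KO against WT (log2(FPKM + 1) scale, bars are ± SE from the limma fit) for the 7 members in each stage; filled points passed an adjusted p under 0.05. The filled points are Olig2 at day 7 (-1.39) and day 9 (-1.29), Olig3 at day 9 (1.31), and Sox10 (-1.70) and Cspg4 (-0.75) in NSCs.

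Markers of neural tube position were read beside these genes. The 10 ventral neural progenitor markers summed to 57.4 to 227 FPKM in WT and 20.1 to 21.7 in KO libraries at day 7, and to 402 to 536 and 55.9 to 158 at day 9. Of the 9 tested, 6 fell at day 7 (6 also without WT day 7 replicate 1), led by Nkx2-9 (log2 fold change -4.79) and Foxa2 (-4.09), and 8 fell at day 9, led by Isl1 (-3.84) and Nkx2-2 (-3.47), with none higher. Their median log2 fold change was -2.05 at day 7 (-2.57 without that library) and -2.85 at day 9, where the medians of all tested genes were close to 0. The 11 dorsal neural tube markers went the other way, with 13.5 to 16.0 FPKM in WT and 21.9 to 42.4 in KO libraries at day 7, and 9.66 to 21.1 and 108 to 183 at day 9. Of the 7 tested, 6 rose at day 9, led by Msx3 (4.25), a factor of the dorsal neural tube, and Zic1 (3.53). At day 7, 2 rose, Wnt1 most (3.00), and Lmx1a fell (-1.92). Olig3 was not called on that day and had the lower mean in KO cells (-0.66). Neuron markers were lower in KO cells at day 9 as well, with sums of 638 to 745 FPKM in WT and 316 to 449 in KO libraries, and 3 of the 7 tested fell and none rose, Nefm (-1.44) and Snap25 (-0.95) most. KO day 9 replicate 2 held the ventral sum of 158 FPKM, and it had the most Olig2 and the least Olig3 of the KO day 9 libraries. The part of the ventral, dorsal and neuron markers in the Olig2 and Olig3 differences was not tested.

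**Figure D4:**
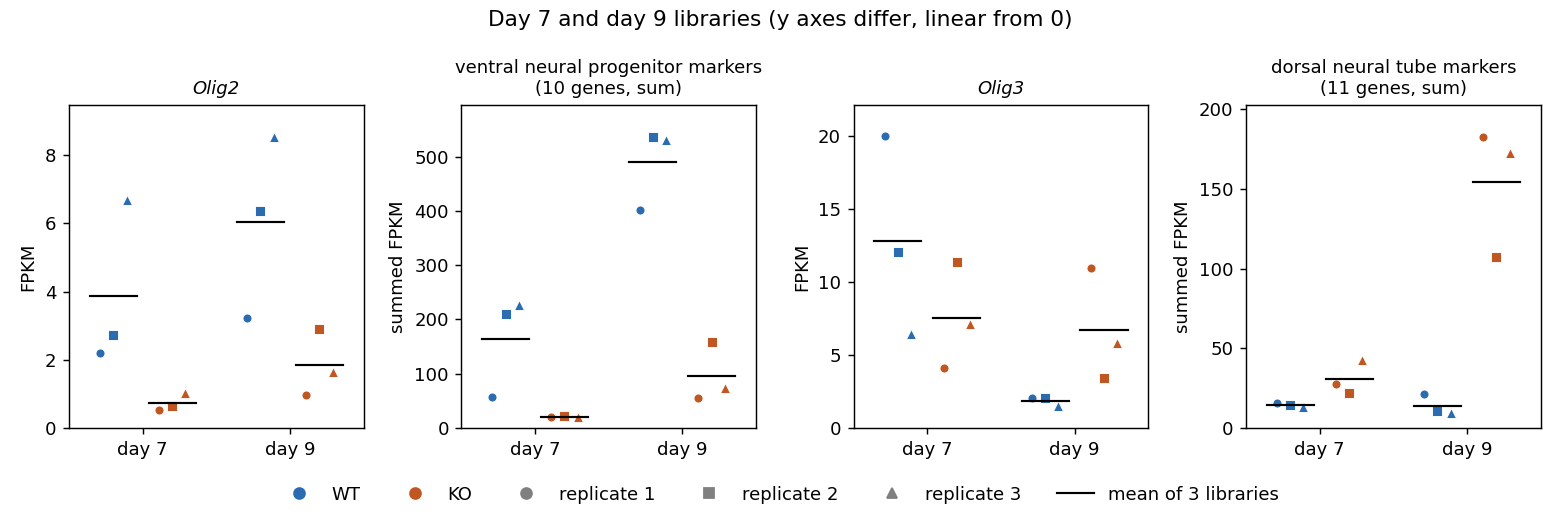
FPKM of Olig2 and Olig3, and summed FPKM of 10 ventral and 11 dorsal markers, in the day 7 and day 9 libraries (linear axes from 0, WT blue, KO orange, symbols for replicates, bars at means of 3 libraries). Olig2 and the ventral sum are lower in all KO libraries on both days, and Olig3 is higher in all KO libraries at day 9 only.

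Markers of mesenchyme and primitive endoderm, where Pdgfra is also expressed, were read beside it. The 12 mesenchyme and mesoderm markers summed to 39.8 to 113 FPKM in WT and 20.9 to 27.7 in KO libraries at day 9, and 6 of the 9 tested fell, with 3 of 9 at day 7 (4 without WT day 7 replicate 1). WT day 9 replicate 1 held 39.8 FPKM against 113 and 101 in replicates 2 and 3, and it was also the lowest of them in Pdgfra. The 7 primitive endoderm markers summed to 9.89 to 18.6 FPKM in WT and 4.72 to 6.27 in KO libraries at day 7, and at day 9 to 4.81 to 11.8 and 4.05 to 5.10, with overlap. Of the 2 tested, 1 fell at day 7, none at day 9, and Dab2 rose in NSCs (0.60, and 0.50 without WT NSC replicate 1, not called, adjusted p 0.0942). Their part in the Pdgfra levels was not tested. Of the 10 neural crest markers, where Sox10 is also used, 7 were tested, and 3 fell and 1 rose at day 9, led by Tfap2a (1.85) and Ngfr (-1.51). Sox10 itself held overlapping values in WT and KO cells on both days.

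In NSCs Sox10 and Cspg4 were lower in KO cells while Olig1 and Olig2 were not. WT NSCs held 5.56 ± 4.33 FPKM of Sox10 (SD, n = 3) and KO NSCs 0.607 ± 0.284, and the WT library with 0.757 FPKM fell inside the KO range. The log2 fold change was -1.70 (SE 0.39, adjusted p 0.00915, limma). The exact permutation p over 3 against 3 libraries was 0.2 for Sox10, above the smallest this design allows, and 0.1 for Cspg4. Sox10 and Cspg4 reached a mean of 1 FPKM only through the NSC libraries, above all the WT ones, so a difference was in part built into their being tested. With no filter on low values the adjusted p was 0.0123 for Sox10 and 0.0144 for Cspg4. Without WT replicate 1 the log2 fold change of Sox10 was -2.48 (adjusted p 5.03e-08). Sox10 was not called without WT replicate 2 (-1.22, 0.0529) or WT replicate 3 (-1.41, 0.0609), nor when the 6 NSC libraries were fitted alone (adjusted p 0.354).

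For Cspg4 the WT mean was 6.37 ± 1.44 FPKM and the KO mean 3.53 ± 1.59, and the libraries did not overlap (log2 fold change -0.75, SE 0.19, adjusted p 0.0180, limma). It was not called without WT replicate 3 (-0.60, 0.112) or KO replicate 2 (-0.46, 0.133), and the adjusted p was 0.212 with a pseudocount of 0.1 and 0.392 when the 6 NSC libraries were fitted alone. Sox10 and Cspg4 were thus 2 of 7 members called, where 6.02% of tested genes were. The count is not read against that share, since both genes were tested only because of the NSC libraries.

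Whether Pdgfra was called depended on the WT library that stood apart, while Omg was not called with or without it. The Pdgfra mean was 17.7 ± 10.9 FPKM with WT replicate 1, against 8.76 ± 3.20 in KO cells, and Pdgfra was not called (-0.76, SE 0.36, adjusted p 0.274). Without WT replicate 1, which held 5.85 FPKM, it was called (-1.37, adjusted p 0.00254), as were Sox10 and Cspg4. Omg, at 7.97 ± 5.39 and 6.77 ± 2.53 FPKM, was called neither with that library (-0.05, adjusted p 0.981) nor without it (-0.58, 0.0840). Olig1 was higher in all KO than in all WT NSC libraries, 1369 ± 114 against 1121 ± 29.5 FPKM, and was not called (0.29, adjusted p 0.633). Olig1 and Cspg4 were the members without overlap in NSCs, as 16.7% of tested genes were. Olig2 was 361 ± 9.17 FPKM in KO and 338 ± 31.4 in WT NSCs (0.10, adjusted p 0.943).

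WT replicate 1 was thus far below the other WT libraries in Sox10, Pdgfra and Omg, while for Olig1, Olig2 and Cspg4 it lay near one of them. In the 6 NSC libraries the correlation of log2 levels was 0.94 between Sox10 and Pdgfra, 0.88 between Pdgfra and Omg and 0.67 between Sox10 and Omg, as a description of 6 libraries that share their culture and depth. Olig2 had negative values with all 3 (-0.84, -0.83 and -0.74).

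**Figure D5:**
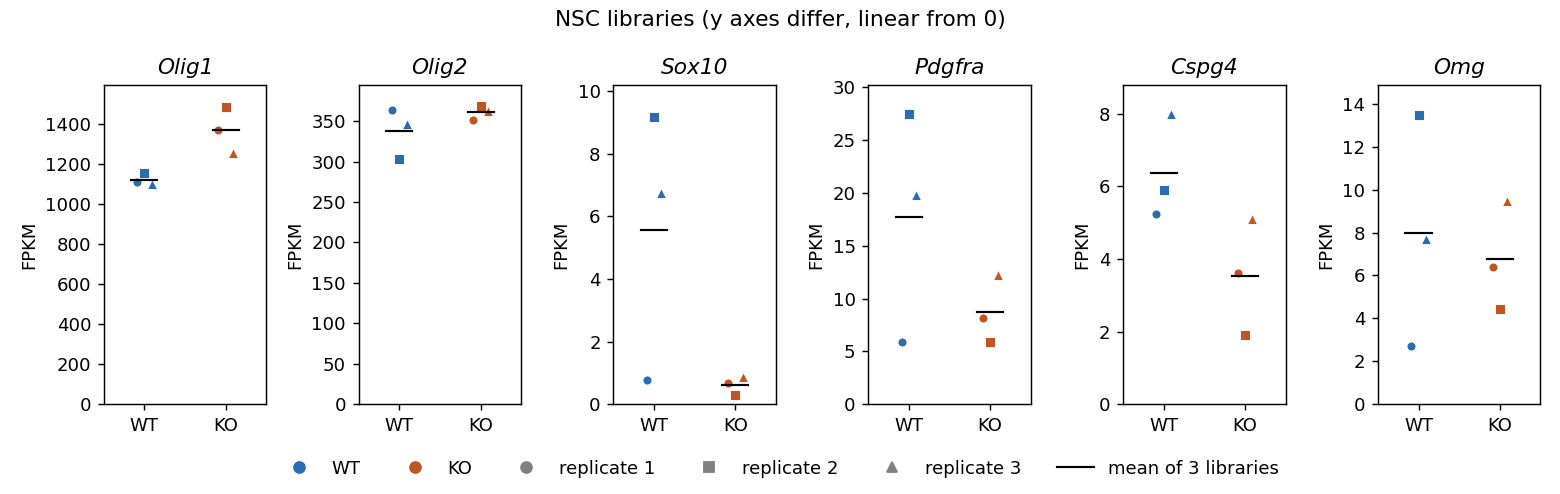
FPKM of 6 members in the 3 WT (blue) and 3 KO (orange) NSC libraries, on linear axes from 0 that differ between panels, with symbols for replicates and bars at means. WT replicate 1 (circle) is at the KO level for Sox10 (0.757 FPKM) and Pdgfra (5.85 FPKM), and WT and KO do not overlap for Olig1 and Cspg4.

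The KO effect in each stage was also set against that in mESCs. None of the 7 members was called by limma at day 7 (1.68% of tested genes called, 1 member with an unadjusted p under 0.05), at day 9 (2.68%, 1 member) or in NSCs (2.26%, 2 members). For Olig2 the difference was -0.99 at day 7 (SE 0.44, adjusted p 0.440) and for Sox10 in NSCs -1.55 (SE 0.55, adjusted p 0.169). That a member was called in one stage and not in mESCs is therefore not shown to be a difference between stages. Without WT NSC replicate 1 the Sox10 difference was called (-2.33, adjusted p 2.52e-05). The KO effect at day 9 set against that at day 7, a comparison added after the values were seen, was called for 1 of 7 members, Olig3 (1.98, SE 0.49, adjusted p 0.0347, 1.83% of tested genes). That call was lost with the replicate block (adjusted p 0.0652) and in 12 of 18 alternatives in all.

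Around the members, 21 of 25 genes of oligodendrocyte precursor cells had a mean of at least 1 FPKM in WT NSCs. Of 20 listed myelin genes 6 did. In WT day 9 cells the counts were 18 and 6. Of 25 regulators and precursor genes besides the members, 22 were tested, and 19 rose and 2 fell from WT mESCs to WT NSCs, where 75.2% of all tested genes were called. Without WT NSC replicate 1 it was 19 and 1. Of the 22, 5 had a mean under 1 FPKM outside NSCs, so that their rise was built into their being tested. Ptprz1, a receptor phosphatase of glia and their precursors, was 7.12 higher and Sox8, a close relative of Sox10, 6.12 higher. Sox8 stood at 125 FPKM in WT NSCs where Sox10 stood at 5.56. Summed FPKM of this list ran from 667 to 955 in WT and from 867 to 878 in KO NSCs. In KO NSCs 20 of 22 rose against KO mESCs and none fell, where 76.0% of all tested genes were called.

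Of 21 myelinating oligodendrocyte genes 20 were listed outside the X chromosome and 9 tested. From WT mESCs to WT NSCs 1 rose and 4 fell (3 and 4 without WT NSC replicate 1), among them Aspa (-1.89) and Mobp. Mag and Mobp, genes of an adhesion protein and a small basic protein of myelin, were at 0 in all 6 NSC libraries, and Mbp, the major basic protein of myelin, was at 0.148 to 0.488 FPKM there. The tested gene that rose with all libraries in was Cnp, an enzyme made early in the lineage. It stood at 29.8, 100.4 and 58.5 FPKM in WT NSCs and 30.2, 32.6 and 29.4 in KO NSCs. Gpr37, which was not tested, had means of 0.05 FPKM in WT mESCs, 4.75 in WT NSCs and 1.13 in KO NSCs. Cnp was lower in KO NSCs (-0.85, adjusted p 0.0399), and its WT replicate 1 was at the KO level, as for Sox10, with -1.29 without that library. Trf, which encodes transferrin, had means of 6.31 FPKM in KO and 1.33 in WT NSCs and of at most 0.67 in other groups. Its call between KO and WT NSCs (1.59, adjusted p 4.45e-04) is no support, since it was tested only because of NSCs, as were 2 of the 9 tested genes of this list.

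Of the regulators and precursor genes a few differed between KO and WT cells in each stage after mESCs. In mESCs none of 22 was called, at day 7 Vcan fell, at day 9 4 fell and 1 rose (6.68% of tested genes called), led by Nkx2-2 (-3.47) and Nkx6-1 (-3.25), ventral factors of the neural tube. In NSCs 1 fell and 2 rose (6.02% of tested genes called), the latter Id4 (1.27), an inhibitor of helix-loop-helix factors, and Tnr (1.10). Without WT NSC replicate 1 neither Id4 (adjusted p 0.0783) nor Tnr (0.0529) was called, and 2 fell and none rose. Among the myelinating genes Nkx6-2, also a ventral factor, fell on both days (-3.17 and -3.21), and Mbp rose at day 9 (0.73).

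The ligands of the PDGF receptors did not follow 1 course. Pdgfa, the main ligand, was highest in mESCs, with 57.7 ± 15.8 FPKM in WT and 54.8 ± 8.21 in KO cells, and fell to 17.6 in WT NSCs (-1.65, adjusted p 4.00e-07). Of the 5 tested genes 3 fell and none rose (3 and 1 without WT NSC replicate 1). The other receptor, Pdgfrb, was among them (-0.91, adjusted p 0.0134), to 0.10 FPKM. Against WT day 9, 2 rose in WT NSCs, Pdgfa (0.61, from 11.2 FPKM) and Pdgfc (1.34, from 2.77 to 8.86 FPKM), and 2 fell. Without WT NSC replicate 1 it was 1 and 2. At day 7 Pdgfb was above its mESC level in WT cells (2.32, from 0.399 to 6.003 FPKM). In KO cells Pdgfa (-1.13) and Pdgfb (-0.83) were lower at day 7, Pdgfrb (-1.37) at day 9, and none of the 5 tested in NSCs (1 without WT NSC replicate 1). Of the Nogo receptor complex, to which Omg binds, 7 genes were tested. The receptor itself, Rtn4r, stood at 0.47 FPKM in WT NSCs and was not called against mESCs (-0.29, adjusted p 0.211). Its partner Lingo1 rose (2.01, to 8.31 FPKM) and its partner Ngfr fell (-2.97, to 0.06 FPKM). Between KO and WT NSCs none of the 7 was called.

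Other cell types were read in the NSC libraries beside Sox10 and Cspg4. Pericyte markers summed to 6.84 to 29.5 FPKM in WT and 3.24 to 6.65 in KO NSCs, and of the 5 tested Mcam fell (-1.33, and -0.73 without WT NSC replicate 1). Mcam was 1 of the 8 with a mean of at least 1 FPKM, in both genotypes, and made up most of each sum, and the highest mean among the others was 0.21 FPKM (Pdgfrb in KO NSCs). Neural crest markers summed to 59.0 to 109 FPKM in WT and 44.3 to 52.1 in KO NSCs, of which only Tfap2a was called (2.16), and the sums of all KO libraries lay below those of all WT libraries. Of the 10, 2 had a mean of at least 1 FPKM in WT and 3 in KO NSCs, and Foxd3 was at 0 in all 6 libraries. Ednrb, which took the largest share of the WT sum, held 16.4, 83.2 and 54.2 FPKM in WT and 23.2, 16.8 and 19.8 in KO NSCs, and was called without WT NSC replicate 1 (-1.72) and not with it (-1.06, adjusted p 0.102). Astrocyte markers summed to 179 to 445 FPKM in WT and 398 to 519 in KO NSCs, and S100b, which oligodendrocyte lineage cells also make, was higher in KO cells (1.37), a call lost without WT NSC replicate 1 (adjusted p 0.0567). Of the neuron markers Syt1 was called lower (-1.81, and -0.89 without that library, when 3 of 7 fell and 1 rose), but it was tested only because of NSCs, where WT cells held 7.87 FPKM and KO cells 0.66. Of the neural stem cell markers 2 of 6 fell, Vim most (-0.55, and -0.51 without that library, not called, adjusted p 0.0674) and Sox2 (-0.49, and -0.68 without that library, still called). None of the mesenchyme or ventral markers was called, and of the dorsal ones Zic1 rose (2.23). Their part in the Sox10 and Cspg4 differences was not tested.

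The genes most like each member over the 24 libraries, by Pearson correlation of log2(FPKM + 1), were as follows, as a description in which the 6 NSC libraries weigh heavily. For Olig1 they were Arap2 (0.992), Nfix (0.991) and Nwd1 (0.989), and for Olig2 Ano6 (0.980), Clptm1l (0.980) and Zfpm2 (0.980). Olig3 was most like Fst (0.934), Nr6a1 (0.918) and Lin28a (0.911), which were also highest at day 7 and lowest in NSCs. Sox10 was most like Aldh1l2 (0.948), Igsf10 (0.855) and Atf5 (0.850). From WT to KO NSCs the mean of Aldh1l2 went from 18.8 to 2.99 FPKM, that of Igsf10 from 4.197 to 0.602 and that of Atf5 from 88.5 to 28.5. Pdgfra was most like Adrbk2 (0.960), Cspg4 like Grin3a (0.984) and Omg like Scrg1 (0.990), which had a mean of 32.0 FPKM in WT NSCs, 21.9 in KO NSCs and 0 in all other groups.

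Some expressed neighbours moved the member's way from WT mESCs to WT NSCs and others did not. Ifnar2, on the other side of Olig1, stood at 11.5 FPKM in WT mESCs and 19.9 in WT NSCs (log2 fold change 0.75). Lingo1 (2.01) and Snx33 (2.98), on either side of Cspg4, rose, as did Nf1 (2.01) and Wsb1 (1.04) beside Omg, while Rab11fip4, on the other side of Omg, fell (-2.95). Perp, next to Olig3, fell (-2.25) and in WT cells was highest at day 7, as Olig3 was, while Ifngr1, on the other side, rose (1.60). Pick1, near Sox10, and Kit, near Pdgfra, fell (-0.74 and -1.15). Polr2f, 3145 bp from Sox10, had means of 410.0 FPKM in WT NSCs and 472 in the KO line (log2 fold change 0.20, adjusted p 0.426). Around Pdgfra both neighbours were lower in KO NSCs, Chic2 (-0.45) and Kit (-0.74, the gene of another receptor tyrosine kinase). Perp, 499487 bp from Olig3, was lower in KO cells at day 7 (-1.23), where Olig3 was not called (-0.66, adjusted p 0.423).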

How the data were processed

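RNA-seq reads were processed by the authors: per the submitters' processing notes with Trim Galore 0.6.6, TopHat2 2.1.1 and Cufflinks/Cuffdiff on mm9, with ribosomal and X chromosome reads removed. The deposited table holds FPKM for each library, as the authors estimated them. The library kit marks strand. The library normalization and strand setting of Cuffdiff are not given in the sources used here. Of 36 FPKM columns 12 belong to other samples and were not used.

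Groups follow the sample titles. A replicate is taken as a separate experiment, as the study states. Genes outside X and Y with a mean of at least 1 FPKM and no failed estimate (12105) were compared with limma 3.58.1 (R 4.3.3, statmod 1.5.0) on log2(FPKM + 1) over all 8 groups, trend and robust, two-sided, with Benjamini-Hochberg adjustment over these genes and a call under 0.05, so fold changes of low genes are understated. The fit was tested on simulated data. With 3 libraries a group, no exact permutation p can be under 0.1. Reads per gene come from the steps between low FPKM values: up to 60 reads, 99.9% of 30861 values of low genes were whole within 0.1 read. Totals are unknown, so depth is relative. Within groups the lowest correlation was 0.955 and at most 3.74% of values were identical, so no library was a copy.

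The members and the 14 lists were chosen with earlier results of these data known. Named were the members, Smchd1, the 3 genes most like each member, genes overlapping or next to it with a mean of at least 1 FPKM, and up to 2 called genes with the largest change per list and comparison. Some picks are left out. Cnp, Gpr37, Mag, Mbp, Mobp, Sox8, Rtn4r, Foxd3 and Ednrb were also named after their values were seen, as was Pdgfc. In the pairing check, same-numbered WT and KO libraries, paired by the numbers in the sample titles, had deviations correlated above 0.1 in all 3 pairs in mESCs (0.29, 0.44 and 0.14) and NSCs (0.34, 0.18 and 0.24), and not at day 7 or day 9. Alternatives were a pseudocount of 0.1, other filters, scaling to the same sum, fitting only the groups compared, a replicate block, and leaving out each library. List counts without WT NSC replicate 1 or WT day 7 replicate 1 were added after seeing the data.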

Additional observations from a re-analysis of the deposited data

Results flagged for a closer look

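The KO difference of Olig3 was set side by side at day 7, where it was not called, and at day 9. Olig3 stood at 4.09, 11.4 and 7.12 FPKM in KO and 19.9, 12.1 and 6.42 in WT libraries at day 7, and at 11.0, 3.39 and 5.84 against 2.02, 2.07 and 1.53 at day 9. The KO effect at day 9 minus that at day 7 was 1.98 on the log2(FPKM + 1) scale (SE 0.49, limma adjusted p 0.0347), and 1.83% of tested genes were called in this contrast. No other member was called. The contrast was added after these values were seen, so it is no independent evidence of a difference between the days. In 12 of 18 alternatives the call was lost, 9 of them among the 12 that leave out a library, with values from 1.60 to 2.38 and adjusted p from 0.00734 to 0.178, and with the replicate block the adjusted p was 0.0652.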

How the results depend on the processing

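No called difference of a member reversed its direction in any alternative run. The uncalled Omg difference between KO and WT NSCs (-0.05) turned to 0.40 without WT NSC replicate 2, 0.030 without WT NSC replicate 3 and 0.18 without KO NSC replicate 2, and Sox10 from WT mESC to NSC became 4.20 with a pseudocount of 0.1. Fitting only the groups compared gave 1 of 7 members called in KO against WT at day 9, Olig2 being lost, and 0 in NSCs, and 5 from KO mESC to day 7. A pseudocount of 0.1 gave 1 member in KO against WT NSCs, 5 from KO mESC to day 7 and 1 from KO day 7 to day 9. Leaving out single libraries gave 0 to 1 member in KO against WT at day 7, 0 to 2 at day 9 and 0 to 3 in NSCs, 1 to 3 from WT mESC to day 7, 2 to 3 from KO mESC to day 7, and 0 to 1 for the KO effect in NSCs against that in mESCs. From KO mESC to day 7 the member lost was Olig2 (limma adjusted p up to 0.0785). The cause was not tested.

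With the replicate block the members called in KO against WT numbered 0 (mESC), 1 (day 7), 2 (day 9) and 2 (NSC), as without it, and no call changed except Olig3 at day 9 against day 7 (adjusted p 0.0652). Over all tested genes, KO against WT in mESCs gave 64 calls, and 98 with the replicate block, 164 with no filter, 42 with scaling to the same sum and 1 with only these groups. At day 9 the 809 calls became 1221 with no filter and 1377 with only these groups, and in NSCs the 729 became 1145 with the block and 58 with only these groups. Leaving out single libraries gave 20 to 112 calls in mESCs, 273 to 521 at day 7 (446 with all), 449 to 752 at day 9 and 406 to 1352 in NSCs, the last without WT NSC replicate 1. For the KO effect against that in mESCs, 203 calls at day 7 became 330 with the block, 324 at day 9 became 165 with a pseudocount of 0.1 and 537 with no filter, and 274 in NSCs became 504 with the block and 57 with only these groups. For day 9 against day 7, 221 became 87 with a pseudocount of 0.1, 411 with no filter and 347 with a filter on the highest group.

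Scaling each library to the same sum of FPKM moved the median log2 fold change of all tested genes from -0.014 to 0.36 in WT NSCs against mESCs and from 0 to 0.43 in KO cells, with no member call changed. Low counts limit Sox10, Cspg4 and Omg outside NSCs, Olig1 at day 9, and the calls of Olig2 at day 7 (7 to 11 reads in KO libraries) and Sox10 in NSCs (4 to 12 reads in KO libraries).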
